A study of Mus musculus with 35 samples.

Results

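The expression of 10 melanocyte pigment genes was followed in mouse skin after a single dose of ionising radiation and related to the hair growth phase of each sample. The genes were taken by symbol from a table of 36106 genes, and all 10 had a row: Tyr, Tyrp1, Dct, Pmel, Mlana, Mitf, Oca2, Slc45a2, Kit and Sox10. The animals were C57BL/6J females, an inbred strain with a black coat, 10 weeks of age. Radiated skin came from the left flank, which received 25 Gy at 3.6 Gy per min over 420 seconds and was shaved with an electric razor after the exposure. The 35 libraries of bulk RNA sequencing comprised 3 from sham mice, which were not radiated, and 4 of radiated and 4 of control skin at each of weeks 1, 2, 3 and 4. In each week, a radiated sample and the control sample with the same number were taken as 1 mouse, because the 35 samples came from 19 animals. The control skin was therefore from radiated animals, and the labels do not say where on the body it was taken or whether it was shaved. Whether sham skin was shaved, and when it was collected, is not given in the sources used here.

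Melanocytes are neural crest derived cells that make melanin inside organelles called melanosomes. Mitf encodes the transcription factor that switches on the pigment enzymes, Sox10 encodes a neural crest factor that acts upstream of Mitf, and Kit encodes the receptor for stem cell factor, a growth and survival signal for melanocytes. Tyr (tyrosinase) carries out the first, rate-limiting step of melanin synthesis, and Tyrp1 and Dct encode related enzymes of later steps. Pmel and Mlana encode proteins of the maturing melanosome, while Oca2 and Slc45a2 encode melanosomal transport proteins. In haired mouse skin the pigment cells sit mainly in the follicles and make melanin while the follicle is in its growth phase, anagen. Krt71, a keratin of the inner root sheath that surrounds a growing hair, was used as the marker of that phase. Some of the genes are not limited to melanocytes: Kit is also a receptor of mast cells, Mitf has forms made in many cell types, and Sox10 is also made by Schwann cells of the skin nerves.

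The sequences upstream of Tyr, Tyrp1 and Dct are shown because these 3 enzyme genes were all higher in radiated skin of week 4 and because the factor encoded by Mitf binds a short E-box motif. RefSeq start sites on GRCm38.p6 were found for 6 of the 10 genes (Tyr, Tyrp1, Dct, Mitf, Oca2 and Kit), with a window of 250 bases before each start. Capitals mark CATGTG or its reverse complement CACATG, searched on both strands. The Tyr window is chr7:87493513-87493762 and the Dct window chr14:118052247-118052496, both on the minus strand. For Tyrp1, whose RefSeq start lies 90 bases inside the GENCODE gene, 30 bases around the motif are shown, chr4:80834155-80834184 on the plus strand.
Tyr: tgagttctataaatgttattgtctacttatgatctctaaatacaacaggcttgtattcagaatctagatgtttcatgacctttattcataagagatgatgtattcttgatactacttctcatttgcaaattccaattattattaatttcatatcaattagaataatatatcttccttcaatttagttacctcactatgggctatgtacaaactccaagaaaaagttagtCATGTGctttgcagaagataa
Tyrp1: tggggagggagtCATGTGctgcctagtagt
Dct: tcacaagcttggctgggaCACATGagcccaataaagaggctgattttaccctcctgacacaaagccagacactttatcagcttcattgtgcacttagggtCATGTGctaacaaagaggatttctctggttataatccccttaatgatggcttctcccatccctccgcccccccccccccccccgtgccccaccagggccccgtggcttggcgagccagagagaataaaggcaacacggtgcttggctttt
The windows of Tyr and Tyrp1 shared the longer stretch AGTCATGTGCT around it, the letters known as the M-box, which began 24 bases before the start of Tyr and 49 bases before that of Tyrp1. It occurred in 7 of 32851 promoter windows of the same length, 0.0213%. The shorter CATGTG, which lies within the M-box, occurred in 4025 windows, 12.3%, among them Tyr, Tyrp1, Dct with 2 matches and Oca2 with 1. The windows of Kit, Mitf and Krt71 held no CATGTG. The related palindrome CACGTG was in 6.02% of windows and in none of those of the 10 genes that were matched. These are matches of letters and no binding was measured.

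On GRCm38, the GENCODE annotation places Tyr on chromosome 7 from 87424771 to 87493512, Tyrp1 on chromosome 4 from 80834123 to 80851719 and Dct on chromosome 14 from 118012790 to 118052244. Kit lies on chromosome 5 from 75574916 to 75656722, Mitf on chromosome 6 from 97807052 to 98021349 and Sox10 on chromosome 15 from 79154908 to 79165240. Pmel (chromosome 10, 128704195 to 128720238) overlaps the protein-coding genes Cdk2 and Dgka on the opposite strand. Mlana is on chromosome 19 from 29697824 to 29708634, Slc45a2 on chromosome 15 from 11000721 to 11029233 and Oca2 on chromosome 7 from 56239760 to 56536518. Dct and Oca2 each overlap an antisense gene and Mitf overlaps a pseudogene on the other strand. Use of strand in the counting is not given in the sources used here, so reads of such partners may be included in the values of Pmel, Dct, Oca2 and Mitf.

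Levels are given in CPM, the counts of a gene per 1e+06 counts of its scaled library. They depend on transcript length and are compared between samples, never between genes. Library totals ran from 17362853 to 28487885 estimated counts, and 3 counts, taken as the lowest readable level, corresponded to 0.114 to 0.175 CPM. Keratinocyte markers were present in every library, with a summed level of 6 genes between 7229 and 31516 CPM. In bulk tissue, fewer melanocytes and less RNA per melanocyte cannot be told apart.

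The genes varied widely between mice of 1 group. For Tyr the SD was largest in sham skin, while Sox10 had its largest SD, 8.16 CPM, in radiated skin of week 3. Tyr stood at 4.99, 1.52 and 16.9 CPM in the 3 sham mice. In control skin, Tyr was 4.79 CPM in replicate 1 of week 1 and 10.7 CPM in replicate 1 of week 2, whereas the other 6 libraries of those weeks lay between 0.333 and 1.05 CPM. The third sham mouse had the highest level of any library for Tyr, Tyrp1 (40.6 CPM), Dct (110.4 CPM), Pmel (30.5 CPM), Mlana (4.34 CPM), Oca2 (3.87 CPM) and Slc45a2 (4.08 CPM). The second sham mouse had the highest Mitf, 125.8 CPM, with 1.91 CPM of Tyrp1. The highest level of the enzyme genes and that of Mitf thus fell in different mice.

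**Figure D1:**
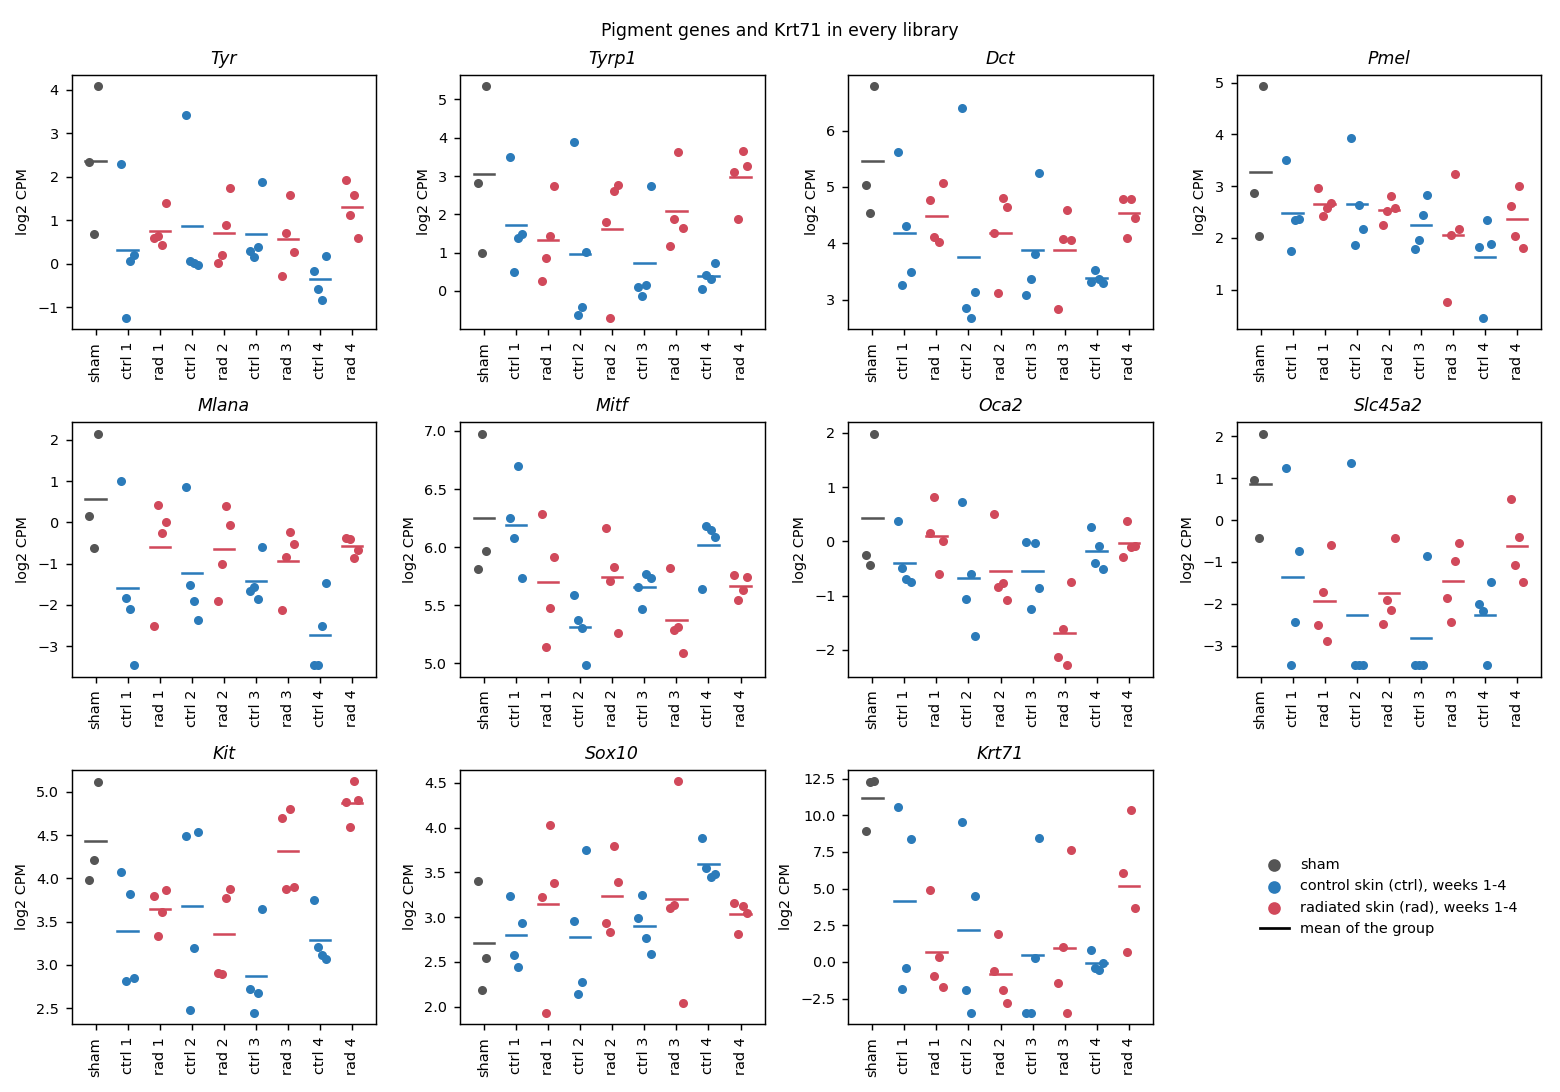
Level of each pigment gene and of Krt71 in all 35 libraries, as log2 CPM (vertical axis), by group (sham, control skin and radiated skin of weeks 1 to 4); points are libraries and lines are group means. The lowest points of Mlana, Slc45a2 and Krt71, near -3.46, are libraries with 0 counts, and the 4 radiated libraries of week 4 lie above all 4 controls of that week for Tyr, Tyrp1, Dct, Mlana and Kit.

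Ordered by group mean, sham skin was highest for 8 of the 10 genes. Mean Tyr ran from 0.719 ± 0.252 CPM (SD, n = 4) in control skin of week 4 to 7.80 ± 8.06 CPM (SD, n = 3) in sham skin. Tyrp1 ran between the same groups from 1.23 ± 0.26 CPM (SD, n = 4) to 16.5 ± 21.0 CPM (SD, n = 3), and Dct from 10.4 ± 0.8 CPM (SD, n = 4) to 55.4 ± 47.9 CPM (SD, n = 3). Control skin of week 4 also had the lowest mean of Pmel and Mlana. The exceptions were Kit, highest in radiated skin of week 4 at 29.5 ± 4.3 CPM (SD, n = 4), and Sox10, which was lowest in sham skin, 6.89 ± 3.16 CPM (SD, n = 3), and highest in control skin of week 4, 12.1 ± 1.8 CPM (SD, n = 4). For each gene, all 8 pairs of neighbouring groups in this order had overlapping libraries, so no step from one group to the next exceeded their spread.

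Each week's radiated libraries were set against that week's controls to ask how the exposure changed these genes over time. In week 4, 7 of the 9 pigment genes tested differed: Tyr, Tyrp1, Dct, Mlana and Kit were higher in radiated skin, and Mitf and Sox10 were lower. Over all genes tested in that week, 48.4% differed, 24.2% higher and 24.2% lower in radiated skin, so a large share of the transcriptome moved as well. The median log2 fold change of the 9 genes was 1.19, against 0.02 over all genes. Differences were tested with edgeR's quasi-likelihood F test, each week in a fit of its own, and p-values were adjusted over all genes by the Benjamini-Hochberg method with a threshold of 0.05. When all 35 libraries shared 1 estimate of spread, edgeR called 2 of these 7 genes, Tyrp1 and Kit. Neither kind of fit paired the 2 libraries of a mouse, so the p-values measure the spread between mice within each kind of skin. A difference in body site or shaving between the 2 kinds of skin cannot be told apart from the exposure.

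Among the enzymes of melanin synthesis, Tyrp1 had the widest separation in week 4. Tyrp1 was 8.45, 3.57, 12.5 and 9.50 CPM in radiated skin and 0.953, 1.24, 1.15 and 1.58 CPM in control skin. The groups did not overlap, and the lowest radiated library was above the highest control library. The log2 fold change was 2.78 ± 0.37 (SE, edgeR adjusted p = 0.00022). Tyr was 3.71, 2.10, 2.89 and 1.43 CPM in radiated and 0.794, 0.575, 0.470 and 1.04 CPM in control skin. Every radiated library lay above every control library here too, and the log2 fold change was 1.81 ± 0.37 (SE, edgeR adjusted p = 0.0030). Dct, the dopachrome tautomerase that acts after Tyr, was 27.6, 17.0, 27.5 and 21.8 CPM in radiated and 9.90, 11.5, 10.3 and 9.73 CPM in control skin. Its log2 fold change was 1.19 ± 0.16 (SE, edgeR adjusted p = 0.00028), again without overlap. In the fit of all 35 libraries the log2 fold changes were nearly the same, 1.81 for Tyr and 1.18 for Dct, with edgeR adjusted p = 0.078 and 0.17. Because the groups did not overlap, all 3 enzymes were higher in radiated skin in 4 of 4 mice, whatever the pairing.

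The melanosome proteins gave a mixed picture. Mlana was 0.683, 0.660, 0.461 and 0.535 CPM in radiated skin of week 4 and 0, 0, 0.0854 and 0.269 CPM in control skin. The groups did not overlap, but the control libraries held only 9 counts of Mlana in sum, against 56 in radiated skin. The log2 fold change of Mlana was 2.54 ± 0.73 (SE, edgeR adjusted p = 0.017), and 2.56 (edgeR adjusted p = 0.073) with all 35 libraries in the fit. Pmel, the amyloid-forming scaffold of the melanosome, was 6.06, 4.00, 7.92 and 3.39 CPM in radiated and 3.44, 1.28, 5.00 and 3.58 CPM in control skin. These groups overlapped, and the log2 fold change of 0.69 ± 0.40 (SE, edgeR adjusted p = 0.18) did not pass the threshold. Oca2, at 0.726 to 1.20 CPM in radiated and 0.615 to 1.11 CPM in control skin, had a log2 fold change of 0.18 ± 0.31 (SE, edgeR adjusted p = 0.66). Slc45a2 had too few counts to be tested in any week: in week 4 it stood at 1.32, 0.388, 0.670 and 0.268 CPM in radiated and 0.159, 0.133, 0 and 0.269 CPM in control skin, with 63 and 13 counts in sum. Its groups touched at their edges, the lowest radiated library being just under the highest control library.

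The receptor and the lineage factors moved in opposite directions. Kit was 29.4, 24.1, 34.7 and 29.8 CPM in radiated skin of week 4 and 13.4, 9.16, 8.54 and 8.27 CPM in control skin. There was no overlap, and the log2 fold change of Kit was 1.59 ± 0.18 (SE, edgeR adjusted p = 7.5e-05). Sox10 was 8.79, 6.94, 8.59 and 8.16 CPM in radiated and 14.7, 11.6, 10.8 and 11.1 CPM in control skin. All radiated libraries lay below all controls, with a log2 fold change of -0.56 ± 0.14 (SE, edgeR adjusted p = 0.0097); in the fit of all 35 libraries it was -0.57 (edgeR adjusted p = 0.29). Mitf was 54.2, 46.6, 49.4 and 53.6 CPM in radiated and 49.8, 72.5, 70.9 and 68.1 CPM in control skin. These groups overlapped through replicate 1 of the controls, and Mitf was lower in radiated skin in 3 of 4 mice. Its log2 fold change of -0.35 ± 0.12 (SE, edgeR adjusted p = 0.039) was the weakest of the 7: the edgeR adjusted p was 0.094 with the mouse as a block, 0.088 with libraries scaled to their total counts and 0.26 in the fit of all 35 libraries. Without any 1 of 7 of the 8 libraries, the exception being control replicate 1, Mitf missed the threshold, with edgeR adjusted p between 0.050 and 0.13. The other 6 genes passed it in the 8 fits that left out 1 library.

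Week 3 showed a difference for 1 of the 8 pigment genes tested, against 27.2% of all genes and 13.6% higher. Kit was 25.9, 14.6, 27.8 and 14.8 CPM in radiated skin and 6.48, 5.37, 6.32 and 12.4 CPM in control skin. All 4 radiated libraries lay above all 4 controls, with a log2 fold change of 1.48 ± 0.33 (SE, edgeR adjusted p = 0.011). Tyrp1 was 2.15, 3.59, 12.2 and 3.04 CPM in radiated and 0.990, 0.819, 1.02 and 6.62 CPM in control skin. A single high control library made the groups overlap, and the log2 fold change was 1.20 ± 0.79 (SE, edgeR adjusted p = 0.28). Without that control library, replicate 4, it was 2.50 (edgeR adjusted p = 0.031). Tyr and Dct had log2 fold changes of -0.10 and -0.09, with edgeR adjusted p = 0.91 for both. Their sign turned under scaling by total counts, to 0.11 and 0.14, a setting that also moved the median of all genes from 0.08 to 0.32. Oca2 and Slc45a2 were not tested in week 3.

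In weeks 1 and 2 no pigment gene passed the test, and over all genes edgeR called 0% in week 1 and 0.00577%, 1 gene, in week 2. With the mouse as a block, 641 genes were called in week 2, 494 higher and 147 lower in radiated skin, and 0 in week 1, but still no pigment gene in either week. The log2 fold changes of the 9 genes tested in week 1 lay between -0.55 (Tyrp1) and 0.55 (Oca2), with edgeR adjusted p from 0.43 to 0.96, and Slc45a2 was not tested. Those of the 7 tested in week 2 lay between -0.93 (Tyr) and 0.44 (Mitf), with edgeR adjusted p from 0.37 to 0.98, and Mlana, Oca2 and Slc45a2 were not tested. No pigment gene had an unadjusted p under 0.05 in either week, where 14.1% and 13.8% of all genes did. DESeq2's Wald test also called 0 of them in both weeks, while it called 416 genes of the table in week 1 and 734 in week 2. Single libraries set these values. In week 2, Dct was 83.9 CPM in control replicate 1 and 6.33 to 8.76 CPM in the other 3 controls, while radiated skin held 18.2, 8.59, 27.9 and 25.0 CPM. Leaving that library out turned the log2 fold change of Dct from -0.41 to 1.43 (edgeR adjusted p = 0.14), of Tyr from -0.93 to 0.92 (edgeR adjusted p = 0.46) and of Tyrp1 from -0.10 to 2.00 (edgeR adjusted p = 0.30).

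**Figure D2:**
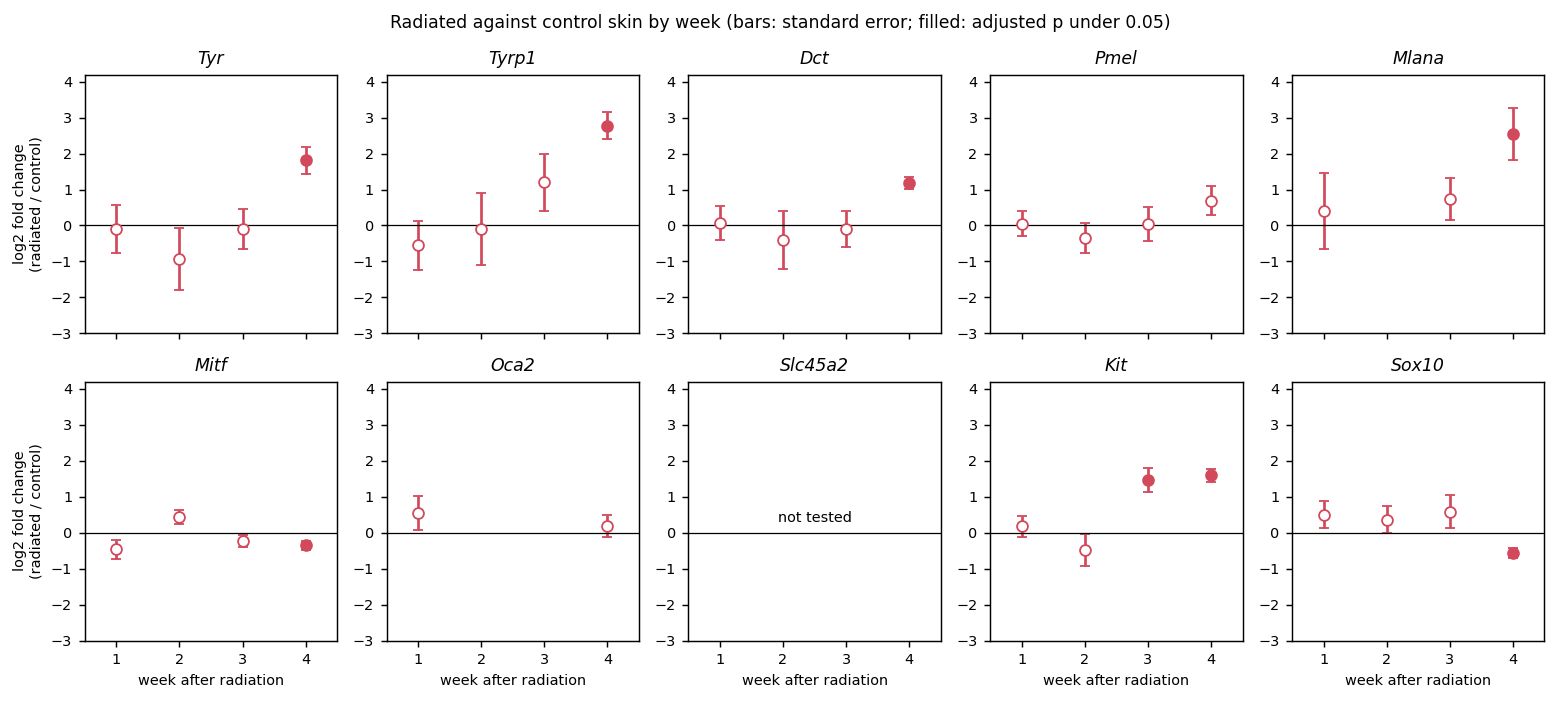
Log2 fold change of each pigment gene between radiated and control skin (vertical axis) at weeks 1 to 4 (horizontal axis); bars are standard errors, filled points have an edgeR adjusted p under 0.05, and a missing point was not tested. Filled points are at week 4 for 7 genes and at week 3 for Kit alone.

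Whether the gap between radiated and control skin depended on the week was tested for each gene in 1 edgeR model of these 32 libraries. Kit was called (adjusted p = 0.011) and the other 9 pigment genes were not (edgeR adjusted p from 0.12 for Mitf to 0.64 for Pmel). Over all genes 15.6% were called. For Kit, the log2 fold changes of weeks 1 to 4 were 0.18, -0.48, 1.48 and 1.59. The call of Kit was lost without the libraries numbered 1 (edgeR adjusted p = 0.14) or those numbered 3 (edgeR adjusted p = 0.11). For Tyr, Tyrp1, Dct and Mlana, a difference in week 4 and none in earlier weeks is thus not shown to be a change over time.

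Sham skin served as the reference without exposure, and all 8 comparisons with it share the same 3 sham libraries. Radiated skin differed from sham in 0 pigment genes of 10 in weeks 1, 2 and 4, and in 2 in week 3. Over all genes the share that differed was 1.75%, 5.06%, 18.2% and 26.7% in weeks 1 to 4. At an unadjusted p under 0.05 there were 5, 4, 6 and 5 of the 10 genes in these weeks, against 16.6%, 23.6%, 33.7% and 39.2% of all genes. In week 3, Oca2 was 0.137, 0.233, 0.114 and 0.507 CPM in radiated skin, below the 0.751, 0.650 and 3.87 CPM of sham skin. The log2 fold change of Oca2 was -2.74 ± 0.80 (SE, edgeR adjusted p = 0.046). Slc45a2 was 0.183, 0.0933, 0.419 and 0.599 CPM, below the 1.85, 0.650 and 4.08 CPM of sham skin, with a log2 fold change of -2.67 ± 0.74 (SE, edgeR adjusted p = 0.039). Of all genes, 7.75% were lower in that comparison. Neither gene was called without sham replicate 1 or 3 or radiated replicate 1, 2 or 3. DESeq2's Wald test called 2, 4, 5 and 3 of the 10 genes in weeks 1 to 4, against 6.78%, 13.8%, 26.7% and 32.7% of all genes. The log2 fold change of Krt71, the hair growth marker, between radiated and sham skin was -8.81 and -11.68 in weeks 1 and 2 (edgeR adjusted p = 0.038 and 0.0071) and -6.10 and -3.27 in weeks 3 and 4 (edgeR adjusted p = 0.10 and 0.21), and its part in these values was not tested. Kit in radiated skin of week 4, the group with its highest mean, overlapped sham skin (15.7, 18.5 and 34.5 CPM), with a log2 fold change of 0.42 ± 0.27 (SE, edgeR adjusted p = 0.29).

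Control skin was also set against sham skin, and the genes that passed the test were all lower in control skin. In week 4, Tyr, Dct and Slc45a2 were lower in control than in sham skin, 3 of the 10 genes against 3.65% of all genes, 1.90% being lower. The log2 fold change was -3.44 ± 0.73 (SE, edgeR adjusted p = 0.046) for Tyr, -2.43 ± 0.48 (SE, edgeR adjusted p = 0.036) for Dct and -3.91 ± 0.83 (SE, edgeR adjusted p = 0.045) for Slc45a2. Tyrp1, with a log2 fold change of -3.74 ± 0.88 (SE), just missed the threshold (edgeR adjusted p = 0.057). In week 3, Kit and Slc45a2 were lower in control than in sham skin, 2 of 10 against 11.4% of all genes and 6.19% lower, with log2 fold changes of -1.60 ± 0.36 (SE, edgeR adjusted p = 0.029) and -4.40 ± 1.19 (SE, edgeR adjusted p = 0.047). In weeks 1 and 2 edgeR called 0 of the 10, while 4.92% and 2.44% of all genes differed. DESeq2 called 1 gene in each of these weeks, against 16.6% and 10.7% of all genes. At an unadjusted p under 0.05 there were 2, 1, 8 and 8 of the 10 genes in weeks 1 to 4, against 27.3%, 21.1%, 29.7% and 22.0% of all genes. For Krt71, the log2 fold change between control and sham skin was -11.90 ± 0.98 in week 4 (SE, edgeR adjusted p = 0.0073), -5.37 in week 3 (edgeR adjusted p = 0.17), -4.21 in week 2 (edgeR adjusted p = 0.31) and -2.95 in week 1 (edgeR adjusted p = 0.36). Its part in the differences of the pigment genes was not tested. These calls rest on few libraries: leaving out any 1 control library of week 4 left none of the 10 genes called, as did the replicate number as a block, while the count was 7 without the first sham mouse and 1 without the third. The week-3 count fell to 0 without sham replicate 2 or 3 or control replicate 1, 2 or 3. Side by side in week 4, mean Tyr was 2.53 ± 0.99 CPM (SD, n = 4) in radiated, 0.719 ± 0.252 CPM (SD, n = 4) in control and 7.80 ± 8.06 CPM (SD, n = 3) in sham skin.

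Hair growth phase differed between mice and between groups. Krt71 was 499.7, 4968 and 5148 CPM in sham skin. In control skin it was 1492 and 337 CPM in 2 mice of week 1, 742 and 22.3 CPM in 2 of week 2, 346 CPM in 1 of week 3, and at most 1.64 CPM in the other 11 libraries, among them all 4 of week 4. In radiated skin Krt71 was 67.8, 1.47, 1335 and 13.0 CPM in week 4, 196 CPM in replicate 4 of week 3 and 29.8 CPM in replicate 1 of week 1, with 0 to 3.68 CPM in the others. In week 4, Krt71 was higher in radiated than in control skin by 8.58 ± 2.06 log2 units (SE, edgeR adjusted p = 0.0068). The groups overlapped, because radiated replicate 2, at 1.47 CPM, lay below the highest control library of that week, at 1.64 CPM. In weeks 1, 2 and 3 the log2 fold change of Krt71 was -5.84, -7.47 and -0.79 (edgeR adjusted p = 0.29, 0.22 and 0.83), with an unadjusted p of 0.024 and 0.012 in weeks 1 and 2. Because the libraries fall into a low and a high set of Krt71 levels, no pooled correlation is given.

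Within control and sham skin, 4 pigment genes followed Krt71: Tyr, Tyrp1, Dct and Slc45a2. The slope is the log2 change of a gene per log2 unit of Krt71, fitted in 19 libraries of 19 mice with a term for each group. It was 0.22 ± 0.05 (SE, edgeR adjusted p = 0.014) for Tyr, 0.27 ± 0.05 (SE, edgeR adjusted p = 0.0053) for Tyrp1, 0.19 ± 0.04 (SE, edgeR adjusted p = 0.0086) for Dct and 0.55 ± 0.08 (SE, edgeR adjusted p = 0.00071) for Slc45a2. Of all genes, 1.60% passed in either direction and 1.46% with a slope above 0. Kit (0.09, edgeR adjusted p = 0.093), Mlana (0.21, edgeR adjusted p = 0.19), Pmel (0.10, edgeR adjusted p = 0.20) and Oca2 (0.07, edgeR adjusted p = 0.54) did not pass. The slope of Sox10 was 0.03 ± 0.03 (SE, edgeR adjusted p = 0.67) and that of Mitf 0.00 ± 0.02 (SE, edgeR adjusted p = 1.00).

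Slc45a2, a transporter of the melanosome, held the steepest slope, and 8 of the 19 libraries had 0 counts of it. In 7 of these 8, Krt71 was below 10 CPM; 0 counts allow a level of up to 0.115 to 0.171 CPM in control and sham libraries, for counting error only. The relation was not uniform, since the second sham mouse had 4968 CPM of Krt71 with 1.52 CPM of Tyr, 23.2 CPM of Dct and 0.650 CPM of Slc45a2. The calls, more than the slopes, rested on single libraries. Without control replicate 1 of week 2 the slopes were 0.17 for Tyr (edgeR adjusted p = 0.27), 0.22 for Tyrp1 (edgeR adjusted p = 0.068) and 0.13 for Dct (edgeR adjusted p = 0.13), and Slc45a2 alone was called. Without control replicate 1 of week 1, Tyr was also lost (slope 0.20, edgeR adjusted p = 0.089). Without the 3 sham libraries, an alternative chosen after seeing the data, Tyr, Tyrp1 and Dct passed (edgeR adjusted p = 0.0068, 0.00045 and 0.010), and Slc45a2 had too few counts to be tested.

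In radiated skin no pigment gene had a slope on Krt71 that passed the test. Over 16 libraries of 16 mice, the slopes were -0.06 ± 0.05 for Tyr, -0.11 ± 0.08 for Tyrp1, -0.01 ± 0.04 for Dct and 0.01 ± 0.09 for Slc45a2 (SE, edgeR adjusted p from 0.98 to 1.00), and none of the 10 had an unadjusted p under 0.05, against 4.68% of all genes. Only 0.0907% of all genes passed there. Genes of the inner root sheath itself still followed Krt71 in radiated skin, 6 of 7 tested, with a slope of 0.93 ± 0.06 (SE) for Krt25, a type I keratin of that layer. In the 11 radiated libraries with Krt71 below 10 CPM, Tyr ran from 0.732 to 3.27 CPM and Dct from 7.04 to 33.4 CPM. In the other 5, Tyr ran from 1.11 to 3.71 CPM and Dct from 16.5 to 27.6 CPM, so the ranges overlapped. The difference in slope between radiated and other skin, fitted in all 35 libraries, did not pass the test for any pigment gene. That fit had no term for the mouse, although each radiated mouse gives 1 library to either side. The difference in slope was -0.28 ± 0.08 for Tyr, -0.38 ± 0.10 for Tyrp1, -0.20 ± 0.06 for Dct and -0.54 ± 0.13 for Slc45a2 (SE, edgeR adjusted p = 0.51, 0.45, 0.51 and 0.45). At an unadjusted p under 0.05 it held 7 of the 10 genes and 7.53% of all genes, and edgeR called 0 genes of the whole table. Leaving out replicate 2 of radiated week 4 gave 2 calls, Tyrp1 (-0.44, edgeR adjusted p = 0.021) and Slc45a2 (-0.57, edgeR adjusted p = 0.039). A slope in control and sham skin and none in radiated skin is thus not shown to be a difference between them.

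**Figure D3:**
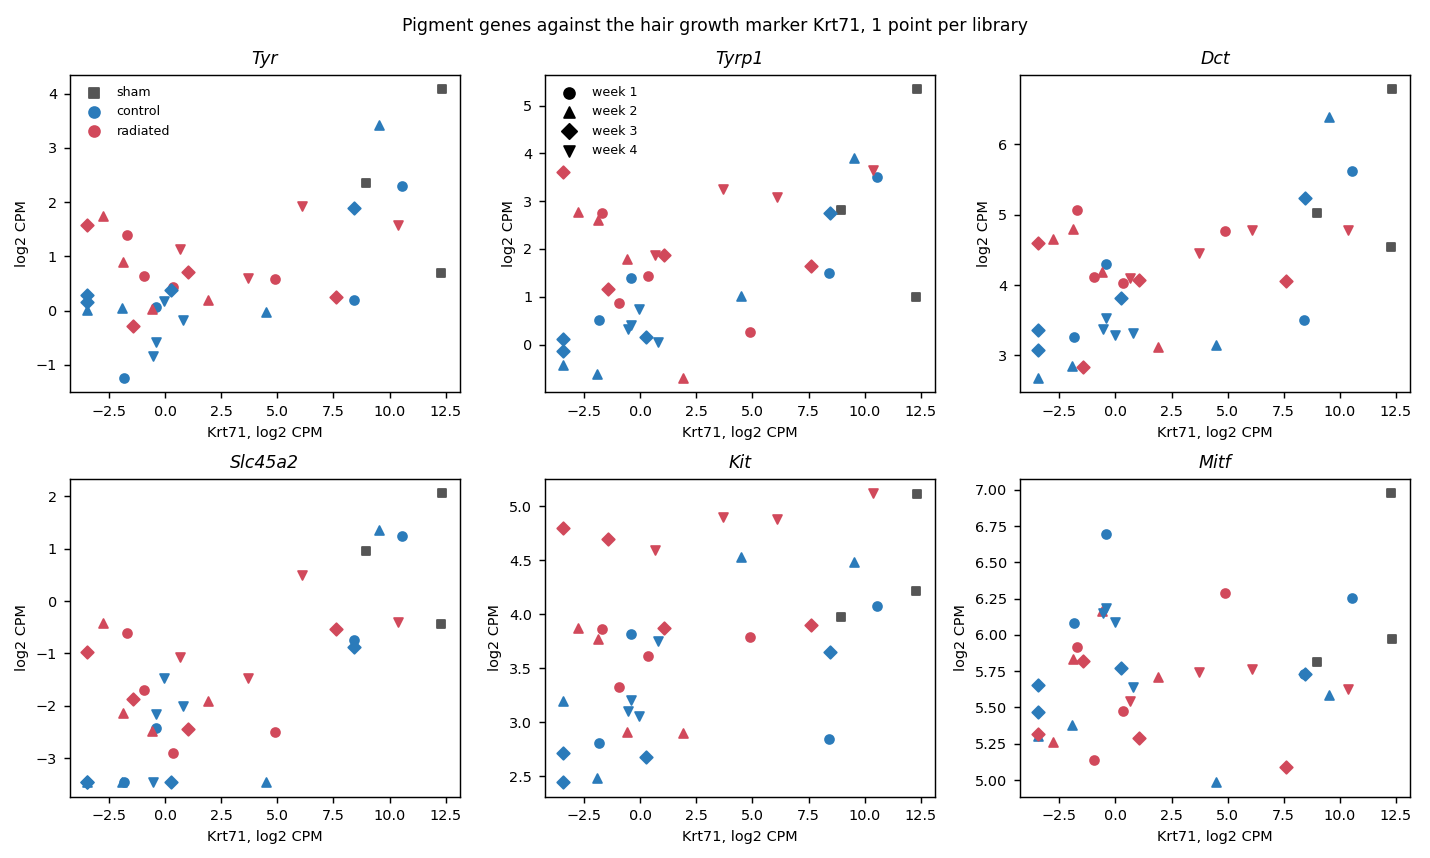
Level of 6 pigment genes (vertical axis, log2 CPM) against Krt71 in the same library (horizontal axis, log2 CPM), 1 point per library, with colour for the kind of skin and shape for the week. Control and sham libraries with high Krt71 hold most of the highest Tyr, Tyrp1, Dct and Slc45a2, while the red radiated points of Kit lie high at both low and high Krt71 in weeks 3 and 4.

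Radiated and control skin were then compared at an equal level of Krt71, in a fit of all 35 libraries with Krt71 as a covariate. In week 4, 1 of the 10 pigment genes differed, Kit, with a log2 difference of 1.31 ± 0.37 (SE, edgeR adjusted p = 0.0066), against 32.6% of all genes and 15.2% higher. The adjusted differences of the enzymes were 1.07 ± 0.72 for Tyr, 1.82 ± 0.92 for Tyrp1 and 0.46 ± 0.56 for Dct (SE, edgeR adjusted p = 0.27, 0.13 and 0.57). Mlana was at 2.02 ± 1.10, Mitf at -0.38 ± 0.26 and Sox10 at -0.52 ± 0.43 (SE, edgeR adjusted p = 0.16, 0.28 and 0.39). In the same 35 libraries without Krt71 in the fit, the differences had been 1.81 for Tyr, 2.78 for Tyrp1, 1.18 for Dct and 1.59 for Kit. In week 3, Kit again differed, by 1.54 ± 0.36 (SE, edgeR adjusted p = 0.0014), while 34.2% of all genes did and 16.6% were higher. Kit kept its call in weeks 3 and 4 in each of the 42 alternative fits of either week. Tyrp1 in week 3 had a difference of 1.95 ± 0.89 (SE, edgeR adjusted p = 0.092) and Oca2 one of -1.54 ± 0.62 (SE, edgeR adjusted p = 0.053). In weeks 1 and 2, none of the 10 genes differed at equal Krt71, while 0.0404% and 1.75% of all genes did. At an unadjusted p under 0.05 there were 0 of them, against 17.0% and 15.8% of all genes. This fit assumes 1 slope for radiated and other skin, and each radiated mouse gives it 2 libraries.

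Other genes of the pigment pathway were read from lists chosen by function. Of 13 other melanosome genes tested in week 4, 5 were higher in radiated skin and 3 lower, against 24.2% of all genes in each direction, with a median log2 fold change of 0.11 against 0.02 over all genes. The higher ones included Slc24a5, a melanosomal cation exchanger, with a log2 fold change of 1.82 ± 0.39 (SE, edgeR adjusted p = 0.0036), and Trpm1, a channel gene of melanocytes, with 1.21 ± 0.32 (SE, edgeR adjusted p = 0.012). Myo5a, the motor that moves melanosomes, rose by 1.27 ± 0.09 and Gpnmb, a Pmel relative also made by macrophages, by 1.59 ± 0.21 on the log2 scale (SE, edgeR adjusted p = 5.2e-06 and 0.00020). Slc7a11, a cystine transporter made in many cells, was higher by 3.23 ± 0.29 (SE, edgeR adjusted p = 1.9e-05). Rab27a and Rab38, small GTPases of melanosome transport and biogenesis, and Mreg were lower, with log2 fold changes of -0.84, -0.76 and -1.10. In week 3, 2 of 13 were higher and 1 lower, against 27.2% of all genes called, and in weeks 1 and 2 none was called.

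Among signals and receptors of the lineage, the share of genes called in week 4 was near the 48.4% of all genes. Of 8 lineage factors and receptors tested in week 4, 2 were higher, Ednrb and Mc1r, and 2 lower, Sox9 and Erbb3. Ednrb, the endothelin receptor that melanocyte precursors need, stood between 59.5 and 95.6 CPM in radiated and between 15.7 and 20.3 CPM in control skin, with a log2 fold change of 2.14 ± 0.16 (SE, edgeR adjusted p = 7.8e-06). Ednrb is made by other skin cells as well. Mc1r, the receptor through which melanocortins raise dark pigment, stood in radiated skin at 2.62 ± 0.44 CPM and in controls at 1.65 ± 0.47 CPM (SD, n = 4 per group), with a log2 fold change of 0.67 ± 0.25 (SE, edgeR adjusted p = 0.049). In week 3, Mc1r was higher by 1.10 ± 0.24 (SE, edgeR adjusted p = 0.010), at levels of 3.26 ± 0.42 CPM and 1.54 ± 0.17 CPM (SD, n = 4 per group). Of 8 signal genes of neighbouring cells, 4 were higher and 0 lower in week 4. Kitl, which encodes the ligand of Kit, differed by 0.40 ± 0.12 (SE, edgeR adjusted p = 0.023), and Hgf, a melanocyte growth factor, by 3.62 ± 0.17 (SE, edgeR adjusted p = 1.5e-06). In week 3, of these only Hgf was called, while 27.2% of all genes were. Asip, which encodes the agouti signal for yellow pigment, was not analysed here.

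**Figure D4:**
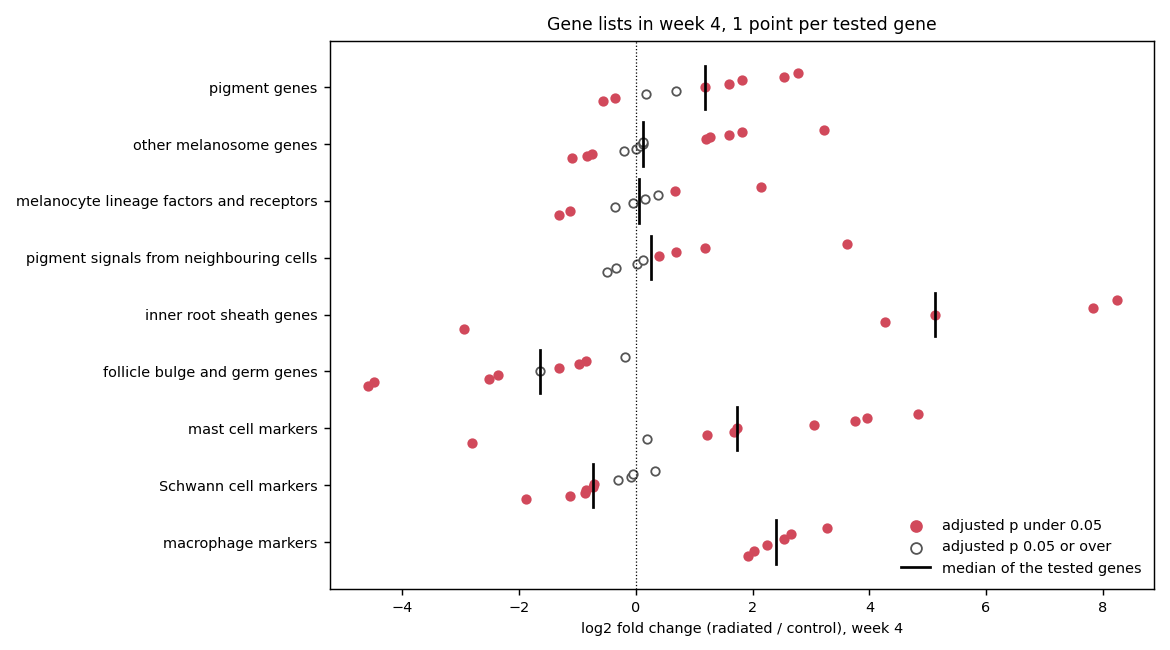
Log2 fold change between radiated and control skin in week 4 (horizontal axis) for each tested gene of the pigment list and of 8 comparison lists; filled points have an edgeR adjusted p under 0.05 and vertical bars are list medians. The pigment genes have a median of 1.19, with Tyr, Tyrp1, Dct, Mlana and Kit to the right and Mitf and Sox10 to the left of 0.

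Markers of other cells that make Kit, Sox10 or Mitf were read beside them in weeks 3 and 4. Of 9 mast cell markers tested in week 4, 7 were higher in radiated skin and 1, Mrgprb2, was lower, against 24.2% of all genes in each direction, with a summed level of 128 to 196 CPM in radiated and 31.9 to 43.5 CPM in control skin. In week 3, 5 of 8 were higher and 1 lower, against 13.6% of all genes in each direction, with sums of 91.9 to 279.5 CPM and 25.3 to 41.5 CPM. Hdc, the enzyme that makes histamine, held much of these sums, with 59.3 to 221 CPM in radiated and 5.49 to 8.96 CPM in control skin of week 3. Without Hdc, a choice made after seeing the data, the sums were 32.6 to 73.1 CPM against 17.3 to 32.5 CPM in week 3 and 75.7 to 110.4 CPM against 29.1 to 38.8 CPM in week 4. The log2 fold changes of the 7 higher markers of week 4 ran from 1.22 (Cpa3, a mast cell carboxypeptidase) to 4.84 (Fcer1a, a chain of the IgE receptor), beside 1.59 for Kit. Those of the 5 higher markers of week 3 ran from 1.01 (Cpa3) to 4.16 (Hdc), beside 1.48 for Kit. Fcer1a had 0 counts in 3 and Tpsab1 in 2 of the 4 control libraries of week 4, and the other 7 markers were present in every library of that week. Of 10 Schwann cell markers, 6 were lower and 0 higher in both weeks 3 and 4, against 13.6% and 24.2% of all genes lower. Sox10 was lower in week 4 and in week 3 had a log2 fold change of 0.59 ± 0.45 (SE, edgeR adjusted p = 0.36). Their summed level in week 4 was 199 to 231 CPM in radiated and 318 to 387 CPM in control skin, and none was at 0. All 6 macrophage markers were higher in week 4, against 24.2% of all genes, with sums of 1189 to 1895 CPM against 249 to 391 CPM. The part of these cells in the values of Kit, Sox10 and Mitf was not tested.

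The genes whose profile over the 35 libraries was most like that of a pigment gene were listed as a description; the libraries share 19 mice, and r is Pearson's correlation of log2 CPM. Among the pigment genes, Dct (r = 0.89), Slc45a2 (r = 0.85), Tyrp1 (r = 0.83), Pmel (r = 0.81) and Mlana (r = 0.81) followed Tyr most closely. Kit (r = 0.59) and Oca2 (r = 0.41) followed it less, and Mitf (r = -0.06) and Sox10 (r = 0.03) had almost no linear relation with it. Over genes outside the list with a mean of at least 1 CPM, the 10 most like Tyr included Trpm1 (r = 0.90), Slc24a5 (r = 0.82), Syt4, Mtcl1, Lef1, Hunk, Msi1, Cdh6 and Mycn (r = 0.73). The profile of Kit was nearest to Fads2 (r = 0.85), Runx2 (r = 0.83) and Trps1 (r = 0.83). Mitf was nearest to Cgnl1, Ccpg1 and Gprin3 (r = 0.82, 0.80 and 0.77), and Sox10 to Usp21, Hdac7 and Bbc3 (r = 0.68, 0.67 and 0.65). None of the 3 genes nearest to Mitf, Kit or Sox10 was among the 10 nearest to Tyr.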

How the data were processed

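Bulk RNA sequencing of 35 skin libraries was read from the authors' deposited table of estimated counts per gene. Total RNA from biopsies stored in RNAlater was isolated with an RNeasy kit and sequenced commercially, and the reads went through Kallisto and then DESeq2, per the labels' protocols. The submitters' processing notes name Trim Galore 0.6.7, kallisto 0.46.2 and mm10. The step from transcripts to genes and the strand setting are not given in the sources used here. Kallisto's estimated counts split reads between similar sequences, so values of genes with near copies are less certain. The 10 genes, the comparison lists and the tests were chosen with earlier results of these data known.

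Counts were rounded and tested with edgeR 4.0.16 in R 4.3.3: filterByExpr, TMM scaling (trimmed mean of M values), quasi-likelihood F test, Benjamini-Hochberg adjustment over all genes, threshold 0.05. The standard error is the size of the log2 fold change divided by the square root of F. CPM is the count per 1e+06 scaled counts, and log2 CPM adds a prior count of 2, over 19813 genes. Named genes are the 10 pigment genes and Krt71, members of the lists, the 10 genes most like Tyr and the 3 most like each of Kit, Mitf and Sox10; some items are not reported here. Alternatives were DESeq2 1.42.0, other scalings, no filter, 1 fit of all libraries, each library left out, the replicate number as a block, another prior count and the mean of the inner root sheath list for Krt71.

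Lists were inner root sheath, hair shaft and matrix, bulge and germ, mast cell, Schwann cell, macrophage, keratinocyte, skeletal muscle, adipocyte and 3 pigment lists. In week 4, when 24.2% of all genes were higher and 24.2% lower, the others gave these counts of higher and lower genes: inner root sheath 4 and 1 of 5 tested, hair shaft 2 and 0 of 7, bulge 0 and 7 of 9, keratinocyte 1 and 4 of 6, muscle 0 and 4 of 7, adipocyte 0 and 1 of 6.

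The pairing of radiated and control samples comes from their shared numbers and the count of mice. Deviations from the group means of same-numbered libraries had a mean correlation over 19813 genes of 0.071, 0.17, 0.053 and -0.020 in weeks 1 to 4, against -0.024, -0.057, -0.017 and 0.0074 for other numbers. No 2 of 51 library pairs of 1 group agreed within sampling noise (lowest reduced chi-square 20.0). On simulated counts with the week-4 libraries, 17910 genes and 97 tested genes changed per size, edgeR recovered 34.0% of log2 changes of 1 and 74.2% of log2 changes of 2, with 4.55% false calls; DESeq2 gave 31.2% false calls. The simulation took its spread from all 35 libraries and changed few genes, whereas 48.4% of all genes were called in week 4. Its rates therefore need not hold for the week-4 test. Floors cover counting error only.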

Additional observations from a re-analysis of the deposited data

Results flagged for a closer look

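In groups of 4 libraries, a library was singled out where its gap to the next exceeded Dixon's 95% limit; 7 of 80 gene and group combinations were, and chance gives about 1 in 20. Control replicate 1 of week 2 stood above the other 3 for Tyr (3.43 log2 CPM against -0.03 to 0.05), Dct (6.39 against 2.68 to 3.15) and Slc45a2 (1.36, with 0 counts in the others). Krt71 in that library was 742 CPM. Control replicate 4 of week 3 stood above the others for Tyr (1.88 log2 CPM against 0.16 to 0.38), Tyrp1 (2.75 against -0.14 to 0.16) and Slc45a2 (-0.87, with 0 counts in the others), and had 346 CPM of Krt71, against at most 1.12 CPM. Control replicate 1 of week 4 stood below the others for Mitf (5.64 log2 CPM against 6.09 to 6.18), with Krt71 at 1.64 CPM, within the range of low libraries.

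The radiated-minus-control difference of Kit differed between weeks in the edgeR interaction test (adjusted p = 0.011). DESeq2's likelihood ratio test gave an adjusted p of 0.00084, and edgeR with the mouse as a block gave 0.024.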

How the results depend on the processing

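The alternatives changed 1 choice at a time, except that the single fit of all 35 libraries also tested more genes (19813, against 17850 in the fit of week 4 alone) and the replicate block at equal Krt71 left out the sham libraries. Changes of the scaling to DESeq2 size factors moved none of the counts of called pigment genes beyond 1.5 times. For radiated against control skin of week 4, 1 fit of all 35 libraries called 2 genes in place of 7, and leaving out 1 library gave 6 to 7; in week 3 leaving out 1 gave 1 to 2. Against sham, DESeq2's Wald test called 2, 4, 5 and 3 genes for radiated skin of weeks 1 to 4 and 1, 1, 4 and 6 for control skin. Without a filter radiated week 2 had 1, with total counts radiated week 3 had 1, and the single fit gave 4 for radiated week 3 and 1 each for control weeks 2 and 3. Leaving out 1 library gave 0 to 1 (radiated week 2), 0 to 2 (week 3), 0 to 4 (week 4), 0 to 5 (control week 2), 0 to 3 (week 3) and 0 to 7 (week 4). The calls of radiated week 4 came without sham replicate 1, 2 or 3 (2, 4 and 1 genes), that of radiated week 2 without its replicate 4, and those of control week 2 without its replicate 1 (5) or sham replicate 1 (1). Leaving out all libraries of 1 number gave 0 to 1 for the change over weeks, and leaving out 1 library gave 1 to 5 for the Krt71 slope in control and sham skin, 0 to 2 for the difference in slope and 1 to 3 at equal Krt71 in week 3, where leaving out the sham libraries, chosen after seeing the data, gave 2. There, 3 genes were called without radiated replicate 4 of week 3, and 2 without sham replicate 2 or 3, radiated replicate 2 of week 1, 1 of week 2 or 2 of week 4, or control replicate 4 of week 2 or 2 or 4 of week 3.

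With the replicate block, 2 genes were called in radiated week 2 against sham, 1 in control week 3 and 0 in control week 4; the numbers do not pair sham mice with others. Between radiated and control skin the block changed the call of Mitf in week 4 and no other, and turned the sign of Tyr in week 1 (0.45), Tyrp1 (0.74) and Dct (0.50) in week 2, and Dct (0.053) and Pmel (-0.16) in week 3, none of them called. Total counts turned Tyr (0.11) and Dct (0.14) in week 3 and the radiated slope of Dct (0.0032), whose sign the inner root sheath list also turned (0.019); a prior count of 0.5 turned that of Slc45a2 (-0.0026).

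Leaving out 1 library turned the sign of uncalled values, with ranges in week 1 of -0.44 to 1.10 (Tyr), -1.30 to 0.47 (Tyrp1), -0.18 to 0.81 (Dct), -0.16 to 0.52 (Pmel) and -0.0072 to 2.72 (Mlana); in week 2 of -1.44 to 0.92 (Tyr), -0.48 to 2.00 (Tyrp1), -0.73 to 1.43 (Dct) and -0.57 to 0.29 (Pmel); in week 3 of -0.59 to 0.52 (Tyr), -0.36 to 0.60 (Dct), -0.51 to 0.32 (Pmel) and -0.052 to 0.87 (Sox10); and for radiated slopes of -0.025 to 0.031 (Dct) and -0.11 to 0.044 (Slc45a2). The cause of these changes was not tested.

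Total counts gave 4054 genes higher and 1270 lower in week 3, in place of 2408 and 2397; for control against sham in week 3 it gave 571 and 1951 in place of 927 and 1109, and at equal Krt71 in week 3 it gave 5250 and 1913 in place of 3286 and 3484. Over all genes, the 1 call of radiated against control week 2 became 641 with the replicate block, 734 with DESeq2 and 544 in the single fit, and the 0 of week 1 became 0, 416 and 23. Against sham, the 319, 912, 3308 and 4899 calls of radiated skin became 1235, 2482, 4861 and 6001 with DESeq2, 126, 497, 3009 and 3160 with the block and 1224, 3257, 6402 and 5127 in the single fit. The 881, 435, 2036 and 655 of control skin became 2974, 1919, 3569 and 1843, then 0, 1, 477 and 97, and 1119, 1559, 2270 and 597. Depth limits Slc45a2, Mlana and Oca2, whose group sums fall to 8, 9 and 22 counts. Mice per group limit all tests.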

Other observations

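Krt71 and the pigment enzymes did not change alike in the sham mice. Krt71 was 4968 and 5148 CPM in the second and the third, while Tyrp1 was 1.91 and 40.6 CPM and Kit 18.5 and 34.5 CPM. The sums of 12 hair shaft and matrix genes over the sham mice ran from 282 to 2766 CPM. In radiated skin of week 4, where Krt71 ran from 1.47 to 1335 CPM, Kit ran from 24.1 to 34.7 CPM, Dct from 17.0 to 27.6 CPM, Tyr from 1.43 to 3.71 CPM and Tyrp1 from 3.57 to 12.5 CPM.

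Follicle genes outside pigment differed in direction in week 4, when 24.2% of all genes were higher and 24.2% lower in radiated skin. Of 9 bulge and germ genes, 7 were lower in radiated skin, among them Krt15, a keratin of the bulge, with a log2 fold change of -4.48 ± 0.75 (SE, edgeR adjusted p = 0.00084), and Lhx2, a factor of follicle stem cells, with -2.52 ± 0.42 (SE, edgeR adjusted p = 0.00081). Of 5 inner root sheath genes tested, 4 were higher, such as Krt25 with 8.24 ± 2.02 (SE, edgeR adjusted p = 0.0076), and Gata3 was lower, with -2.95 ± 0.33 (SE, edgeR adjusted p = 7.4e-05). Without Gata3, the listed inner root sheath genes summed to 17.8 to 4568 CPM in radiated and 20.0 to 32.4 CPM in control skin. The lowest radiated library thus lay below all controls, and the rise was not shared by every radiated library.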
